A study of Prunus persica with 2 samples.

Results

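miR169 and the predicted miRNAs that resemble it were followed in fruit of the peach cultivar 'Troubadour', together with the transcripts on which degradome reads were listed for them. The members were the listed miRNA name miR169 and the 5p arms of 10 predicted hairpins, 11 of the 886 listed names, and the 20 of 469 listed degradome pairs that lie on the transcripts ppa006634m and ppa010894m or involve miR169. All 20 pairs involve these 11 names. The names were taken by hairpin number and by their likeness to miR169, and not by their read counts. For 1 small RNA library, equal amounts of RNA had been mixed from fruits picked at 5 dates, which were 35, 55, 75, 90 and then 105 days past full bloom. The 1 degradome library is listed here with the same dates, and the paper does not state how RNA was mixed for it. Neither library has a replicate or an untreated counterpart, and stages cannot be told apart, so no difference between conditions was tested. Counts are given with exact Poisson intervals and shares with exact Clopper-Pearson intervals at the 95% level, which describe counting error and nothing else, as reads amplified by PCR and carrying no molecular identifier cannot be taken as separate molecules.

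In plants, miR169 is a conserved miRNA family known for guiding the cleavage of mRNAs that encode the A subunit of nuclear factor Y (NF-YA). The NF-YA protein joins an NF-YB and NF-YC dimer and recognises the CCAAT element of promoters. The family is known for its part in the drought response of Arabidopsis, in nodule development of Medicago and in flower development of petunia and snapdragon. A degradome library sequences the 5′ ends of uncapped poly(A)+ RNA, so the 3′ product of a cleavage gives reads that start at the cut, and plant miRNAs cut opposite the bond between their nucleotides 10 and 11.

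The 4 distinct sequences behind the 11 names are printed first, because every later result depends on how they are offset from each other. Letters are RNA, 5′ to 3′, with nucleotides 2 to 8, the seed, in capitals. The predicted arms were deposited with T, which was written as U.
miR169: uGAGCCAAgaaugacuugcug
TBD-623-m0023-5p: cAGCCAAGgaugacuugccgg
TBD-623-m0107-5p: uAGCCAAGgaugacuugccu
TBD-623-m0148-5p: gAGCCAAGgaugaauugccgg
The sequence of TBD-623-m0023-5p is also listed under m0122, m0131 and m0132, that of TBD-623-m0107-5p under m0108, m0129 and m0183, and that of TBD-623-m0148-5p under m0149. The 10 predicted names therefore hold 3 distinct sequences, with 4, 4 and 2 names. The predicted sequences share the seed AGCCAAG, which differs from the miR169 seed GAGCCAA by a shift of 1 nucleotide. The seed of the predicted sequences is what miR169 carries from its nucleotide 3 onwards.

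All 3 predicted sequences aligned best to miR169 without gaps when their first nucleotide was set against nucleotide 2 of miR169. Positions below are counted from 1 at the 5′ end of miR169, with the miR169 base first. TBD-623-m0148-5p matched 17 of 20 aligned nucleotides and carried the substitutions A10G, C15A and U20C. TBD-623-m0023-5p also matched 17 of 20 and carried G2C, A10G and U20C. TBD-623-m0107-5p matched 16 of 20 and carried G2U, A10G, U20C and G21U. The changes A10G and U20C were common to the 3 predicted sequences, whereas C15A was found in TBD-623-m0148-5p and in no other member. Among themselves, the predicted sequences were closer: TBD-623-m0148-5p and TBD-623-m0023-5p shared 19 of 21 nucleotides, and TBD-623-m0107-5p and TBD-623-m0023-5p shared 18 of 20.

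When every listed name was aligned to miR169 in this way, 10 of the other 885 names, or 1.13%, matched at least 16 nucleotides, and these were the 10 predicted arms of the rule. Since the arms were chosen for their likeness to miR169, this is a description of the choice and not a result. The remaining 875 names had a median of 8 matching nucleotides. The nearest of them was miR863, with 15 of 20 aligned nucleotides and 5 reads (1.62 to 11.7). Its sequence, uugagacaacaaagacauggu, carries C5A, G9C, U12A, U16A and C19G, of which C5A and G9C fall within the shared seed. The next nearest was TBD-623-m0111-3p with 14 of 19 and 16 reads, and its sequence, ugccaagaaagaguugcccua, carries the shared seed except for its first A. After it came TBD-623-m0090-3p, TBD-623-m0094-3p and TBD-623-m0096-3p with 12 matching nucleotides each. None of these 5 names had a degradome pair.

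**Figure D1:**
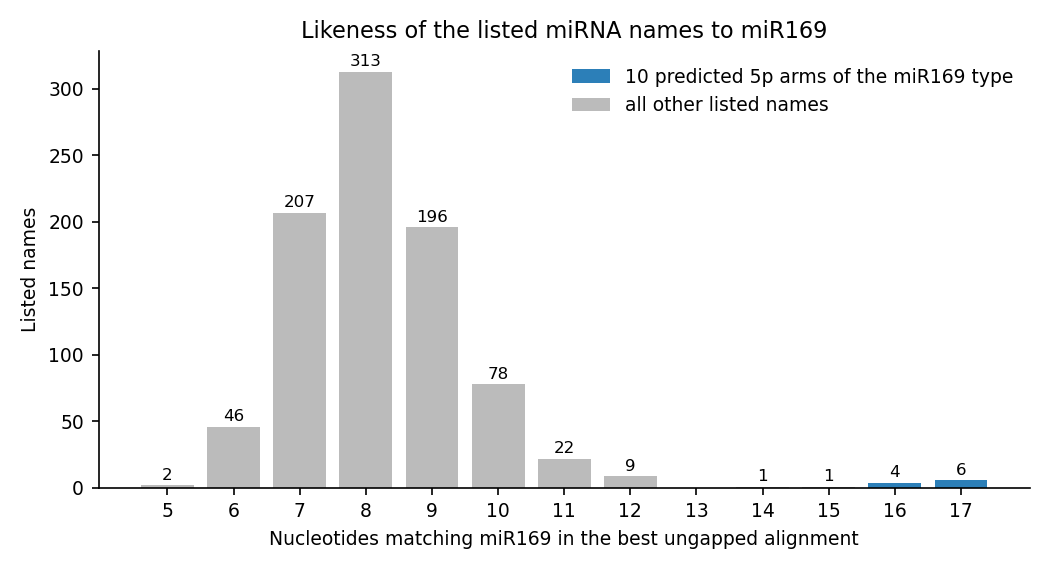
Number of listed names (vertical axis) by the nucleotides that match miR169 in the best ungapped alignment (horizontal axis), for the 10 predicted arms in blue and the 875 other names in grey. The grey bars peak at 8 nucleotides and end at 15, and the blue bars stand at 16 (4 names) and 17 (6 names).

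miR169 was by far the most abundant member in the fruit library. miR169 had 4207 reads (4081 to 4336), which was 0.182% (0.177 to 0.188%) of the 2308209 listed reads, and ranked 12th of the 557 known names. Its level lay close to that of its neighbours in this order. Its reads were 0.95 times (0.910 to 0.991) those of miR894, which had 4429, and 1.05 times (1.01 to 1.10) those of miR535, which had 3996. These intervals exclude equality by a narrow margin, and with a single library no biological spread is known, so the order of these neighbours is not established.

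The predicted sequences were rarer and differed among themselves. TBD-623-m0023-5p and the 3 names that share its sequence were listed with 250 reads each (220 to 283). TBD-623-m0148-5p and m0149 were listed with 82 reads each (65.2 to 101.8). TBD-623-m0107-5p, m0108 and m0129 were listed with 34 reads each (23.5 to 47.5), and m0183, with the same sequence, with 24 (15.4 to 35.7). A shared sequence thus carried the same count under each name, except for m0183. Where the counts are equal, they cannot be divided among the hairpins that could have produced the reads. The lower count of m0183 shows that the printed sequence alone does not fix the listed count. How reads with other ends were assigned was not stated in the sources used here.

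Counted 1 time per sequence, the predicted 5p sequences had 366 reads together. The reads of miR169 were 11.5 times (10.3 to 12.8) this sum, so that the predicted sequences held 8.0% (7.23 to 8.83%) of the 4573 reads listed for miR169 and for them. The reads of miR169 were 16.8 times (14.8 to 19.2) those of TBD-623-m0023-5p, 51.3 times (41.2 to 64.6) those of TBD-623-m0148-5p and 124 times (88.4 to 179) those of TBD-623-m0107-5p. The paper reads the count of a known name as that of a family. Whether all reads listed under miR169 have its printed sequence is not stated. The same holds for the predicted names, since m0183 and m0107 have 1 printed sequence but 24 and 34 reads. These values therefore compare listed counts, each of which may cover more than the printed sequence. Within the predicted sequences, TBD-623-m0023-5p had 3.05 times (2.37 to 3.96) the reads of TBD-623-m0148-5p, which in turn had 2.41 times (1.60 to 3.71) those of TBD-623-m0107-5p. Each step in this order was larger than counting error. All were above the median of 15 reads over the 329 predicted arms, and 256 of these arms had fewer reads than TBD-623-m0148-5p.

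**Figure D2:**
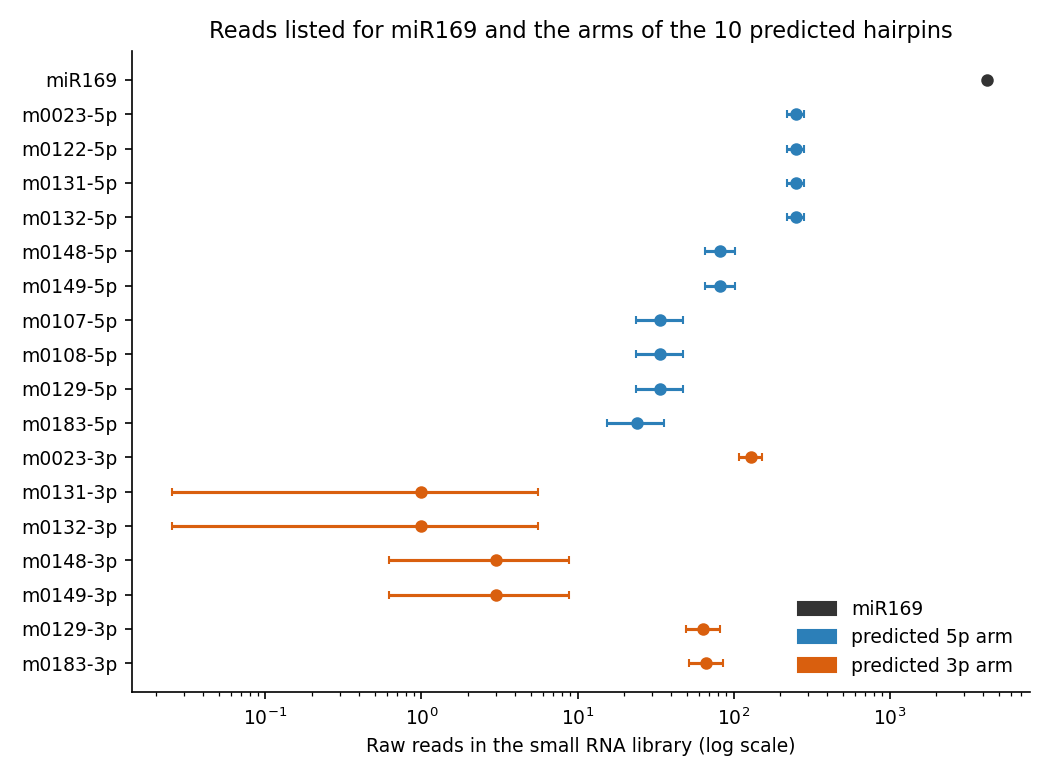
Raw reads (horizontal axis, log scale) of miR169, of the 10 predicted 5p arms and of the 7 predicted 3p arms that are listed (vertical axis), with exact 95% Poisson intervals as bars. miR169 stands at 4207 reads, names that share a sequence stand at the same count apart from m0183 (24 against 34), and the 3p arms of m0131, m0132, m0148 and m0149 stand at 1 to 3 reads.

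The hairpins in which the arms lie are shown for the 3 sequences, because the base before each arm can be set against nucleotide 1 of miR169. The 5p arm, and the 3p arm where it is listed, are in capitals.
TBD-623-m0131: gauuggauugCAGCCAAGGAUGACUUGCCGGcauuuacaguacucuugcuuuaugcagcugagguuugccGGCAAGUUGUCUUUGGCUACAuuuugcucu
TBD-623-m0107: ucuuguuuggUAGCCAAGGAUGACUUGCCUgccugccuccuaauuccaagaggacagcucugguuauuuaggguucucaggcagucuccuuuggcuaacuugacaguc
TBD-623-m0148: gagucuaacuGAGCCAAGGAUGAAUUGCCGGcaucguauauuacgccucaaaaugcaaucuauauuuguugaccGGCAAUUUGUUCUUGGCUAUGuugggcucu
The base just before the arm was U in m0148 and m0149, as at nucleotide 1 of miR169, and G in the other 8 hairpins. Read in the register of miR169, the m0148 and m0149 hairpins therefore matched 18 of 21 nucleotides of miR169, the 4 hairpins of the TBD-623-m0023-5p sequence matched 17 and the 4 of the TBD-623-m0107-5p sequence matched 16. The listed small RNA of m0148, however, starts with the G that follows this U.

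The 10 hairpins lie on 4 scaffolds of a peach genome, whose release the sources used here do not name, at the places named in the study's supplementary list of hairpins. m0131 lies at scaffold 4, 16648995 to 16649094, and m0132 at 16676120 to 16676219, both on the plus strand. m0148 lies at 16643245 to 16643348 and m0149 at 16662473 to 16662576, both on the minus strand of the same scaffold. These 4 hairpins fall within 33.0 kb and their strands alternate along it. m0131 and m0132 differed at 1 of 100 nucleotides (C59U, counted from the 5′ end of the m0131 hairpin). m0148 and m0149 differed at 3 of 104 (C35U, G45C and U70C, counted likewise from that of m0148). All 4 of these differences lie between the arms, so both arms are identical in each pair and their reads cannot be told apart.

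m0107 (scaffold 3, 21677982 to 21678089) and m0108 (21678261 to 21678406) lie on the plus strand with 171 nucleotides between them, and their first 34 nucleotides are identical. m0122 lies on the minus strand of the same scaffold at 19573361 to 19573492. m0129 lies on scaffold 4 (10137181 to 10137295, plus strand), m0183 on scaffold 5 (13336056 to 13336224, minus strand) and m0023 on scaffold 1 (27231740 to 27232046, plus strand). The hairpins were 100 to 307 nucleotides long, with m0023 the longest. When folded, they had predicted minimum free energies between -80.7 kcal/mol for m0023 and -44.0 kcal/mol for m0107 and m0129, and 17 to 20 nucleotides of each 5p arm were paired.

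Reads of the 3p arms differed between hairpins that share a 5p sequence. The 3p arm is the strand opposite the 5p arm in the hairpin, and its counts are informative because the 3p sequences are more specific to a hairpin than the 5p sequences. For m0131 and m0132, which share both arms, the 5p arm was listed with 250 reads and the 3p arm with 1, a 5p share of 99.6% (97.8 to 99.99%) if all 250 reads came from these hairpins. For m0148 and m0149, whose arms are listed under no other name, the 5p arm had 82 reads and the 3p arm 3, a 5p share of 96.5% (90.0 to 99.3%) for both hairpins together. For m0023 the 5p arm was listed with 250 of the 379 reads of both arms, a 5p share of 66.0% (61.0 to 70.7%) on the same condition. The 250 reads of the 5p arm belong to a sequence that m0023, m0122, m0131 and m0132 share and their division is not known, so the shares of 99.6% and 66.0% are upper limits and the arm balance of these hairpins cannot be compared.

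For the hairpins of the TBD-623-m0107-5p sequence with both arms listed, the 3p arm had more reads than the 5p arm. In m0129 the 5p arm had 34 reads and the 3p arm 64, a 5p share of 34.7% (25.4 to 45.0%). In m0183 the 5p arm had 24 reads and the 3p arm 67, a 5p share of 26.4% (17.7 to 36.7%). The intervals of both shares lie below 50%. No 3p arm was listed for m0107, m0108 and m0122. The 3p arms with more than 3 reads were these, printed because they carry most of the 3p reads:
TBD-623-m0023-3p: ggcaaguuguccauggcuac
TBD-623-m0129-3p: gcaagcaccuuggcuaacu
TBD-623-m0183-3p: gcaaguugucuuuaggcuaguc
The 5 distinct 3p sequences had 264 reads together. The 3p sequences of m0023, m0129 and m0183 each belong to 1 name, whereas their 5p counts belong to sequences shared with other hairpins, so the 5p shares of m0129 and m0183 are upper limits as well. The 3p arms also differed more than the 5p arms. Aligned without gaps, the 3p arms of m0023 and m0131 matched at 18 of 20 nucleotides, and those of m0129 and m0183 at 8 of 15. The 3p arms of m0129 and m0183 are of unlike length and both start with gcaag. A gapped alignment of the 3p arms was not made, so 8 of 15 can overstate how far they differ.

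The degradome list held 11 pairs on ppa006634m and 9 on ppa010894m, of which 2, 1 on each, were with miR169. ppa006634m (scaffold 4, 18621495 to 18625948) is described in the study's supplementary material by its likeness to Arabidopsis NF-YA1. ppa010894m (scaffold 3, 21081928 to 21084359) is described there as a predicted protein of poplar, with no function, so it is called by its identifier here. Another transcript, ppa012173m, described by its likeness to Arabidopsis NF-YA7, has a site for these miRNAs but no pair in the degradome list. Of the transcripts with an NF-YA description, ppa006634m was therefore in the list and ppa012173m was not. The sites are shown with the nucleotides at the listed cleavage positions in capitals, numbered along the transcript.
ppa006634m, 1241 to 1262: gcggcaauucaUUcuuggcuuu
ppa010894m, 519 to 540: uugccaagucaUUcuuggcuuu
ppa012173m, 698 to 719: caggcaaaucauucuuggcuuu
The sites of ppa006634m and ppa010894m were identical at 18 of 22 nucleotides. All 3 sites shared the 14 nucleotides ucauucuuggcuuu at their 3′ end, which pair with the 5′ part of the miRNAs.

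Reads on both transcripts were listed at neighbouring positions, 1 nucleotide apart, and the position differed with the miRNA. On ppa006634m, miR169 was listed with position 1253, where 1 read started (0.0253 to 5.57). All 10 predicted names were listed with position 1252 of ppa006634m, where 5 reads started (1.62 to 11.7). On ppa010894m, miR169 was listed with position 531, where 2 reads started (0.242 to 7.22). The 8 names of the sequences TBD-623-m0023-5p and TBD-623-m0107-5p were listed with position 530 of ppa010894m, where 1 read started (0.0253 to 5.57). TBD-623-m0148-5p and m0149 were not listed on ppa010894m.

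In all 20 pairs the listed position lay opposite nucleotide 10 of the miRNA, as in 423 of the 469 pairs of the whole list. The shift of 1 nucleotide between the cleavage positions is therefore the same as the shift between the sequences, and it follows from the way positions are listed for each miRNA. Which of the 2 positions held more reads is not fixed in that way. The position of miR169 held 1 of 6 reads on ppa006634m (16.7%, 0.421 to 64.1%) and 2 of 3 reads on ppa010894m (66.7%, 9.43 to 99.2%). Over both transcripts it held 3 of 9 reads (33.3%, 7.49 to 70.1%). These intervals are wide and include 50%, so a preference for either position was not detectable at this depth.

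**Figure D3:**
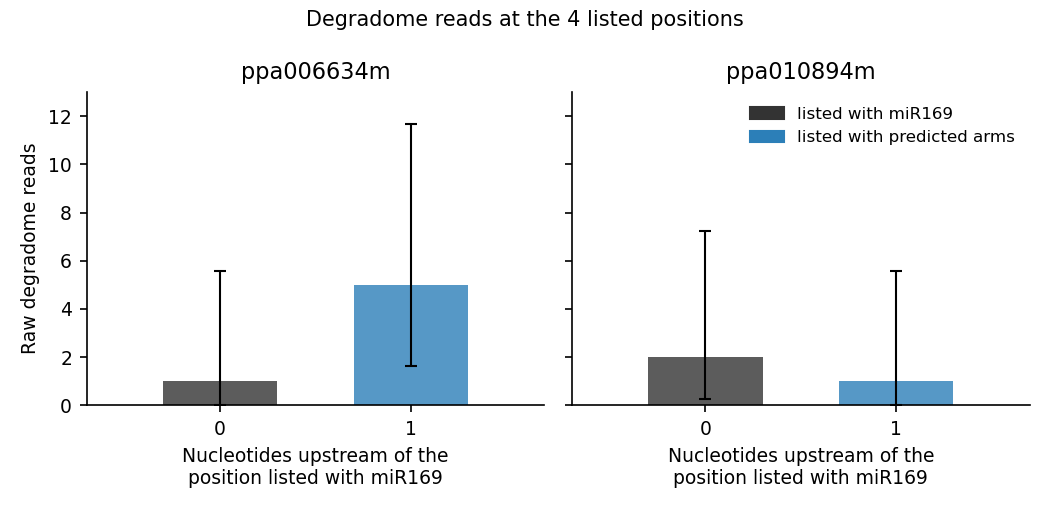
Raw degradome reads (vertical axis) at the position listed with miR169 (0, dark) and at the position 1 nucleotide upstream listed with the predicted arms (1, blue) on ppa006634m (left) and ppa010894m (right), with exact 95% Poisson intervals. The reads were 1 against 5 on ppa006634m and 2 against 1 on ppa010894m, with overlapping intervals.

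Counted 1 time per position, the 4 positions held 9 reads. Summed over the 20 pairs the same reads would come to 61, because the 5 reads at position 1252 of ppa006634m are repeated for 10 names. The authors' normalized reads equalled the raw reads in all 20 pairs. Reads were few throughout the degradome list: its 393 distinct positions had a median of 1 read, a range of 1 to 3942, and 24.2% of them had at least 5. Of the 379 listed transcripts, 14 had more than 1 listed position, and 5 had positions 1 nucleotide apart, ppa006634m and ppa010894m among them.

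CleaveLand sorts a position by category, which compares its reads with the other positions on the same transcript. Position 1252 of ppa006634m was in category 1, which marks a position that has more than 1 read and ties with another for the highest count on its transcript. It was 1 of 5 category 1 positions in the list. Position 531 of ppa010894m was in category 2, above the median of its transcript but below the highest position. The positions with 1 read, 1253 of ppa006634m and 530 of ppa010894m, were in category 4, as were 200 of the 393 positions.

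The p-value that the authors' program attached to each pair was under 0.05 in 10 of the 20 pairs, against 87 of the 469 pairs of the whole list, or 18.6%. These 10 pairs are the 10 names at position 1252 of ppa006634m, which rest on the same 5 reads, so they are not separate observations. Per distinct sequence and position, 3 of 7 were under 0.05. For miR169 the deposited p was 0.278 on ppa006634m and 0.538 on ppa010894m. On ppa006634m it was 0.00507 for TBD-623-m0148-5p, 0.0141 for TBD-623-m0023-5p and 0.0176 for TBD-623-m0107-5p. On ppa010894m it was 0.680 for TBD-623-m0023-5p and 0.760 for TBD-623-m0107-5p. The most abundant miRNA of the group was thus listed only at positions whose deposited p missed the threshold, which does not show that it does not cut there.

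The alignment score of a pair counts 1 for a mismatch and 0.5 for a G-U pair, doubled at nucleotides 2 to 13 of the miRNA, so a lower score means closer pairing. Pairing was recomputed base by base, and the score equalled the deposited score exactly in all 12 distinct pairs of sequence and transcript for which a site sequence was at hand. On ppa006634m, the score was 3.5 for miR169, with mismatches at its nucleotides 1 and 15 and G-U pairs at 2 and 20. It was 2.5 for TBD-623-m0148-5p, with a mismatch at nucleotide 21 and G-U pairs at 1 and 9. It was 4 for TBD-623-m0023-5p, with mismatches at 1, 14 and 21, and also 4 for TBD-623-m0107-5p, with mismatches at 1, 14 and 20. TBD-623-m0148-5p, the second most abundant predicted sequence, was therefore the closest in pairing to ppa006634m among the 4 sequences.

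The substitutions among the 4 sequences changed the pairing in a way that depended on the transcript. At A10G, the site has U in both transcripts, so miR169 forms a Watson-Crick pair there and the 3 predicted sequences a G-U pair. At U20C, the site has G in both, so miR169 forms a G-U pair and the predicted sequences a Watson-Crick pair. At C15A, found only in TBD-623-m0148-5p, ppa006634m has U at position 1248, which pairs with the A of TBD-623-m0148-5p and mismatches the C of the other 3 sequences. At the same place ppa010894m has G at position 526, which pairs with the C of the other 3 sequences and mismatches the A of TBD-623-m0148-5p. At nucleotide 2 of miR169 both transcripts have U, giving a G-U pair with miR169 and with TBD-623-m0148-5p and a mismatch with the C or U of the other predicted sequences.

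On ppa010894m, miR169, TBD-623-m0023-5p and TBD-623-m0107-5p all had a score of 4, with 2, 2 and 3 mismatches. TBD-623-m0148-5p, for which no pair was listed there, came to 4.5 when its pairing was computed in the register of the other predicted sequences, with mismatches at its nucleotides 14 and 18 and 4 G-U pairs. The highest score in the whole degradome list was 4. On ppa012173m the computed scores were 4.5 for miR169, 4 for TBD-623-m0023-5p, 3 for TBD-623-m0107-5p and 3.5 for TBD-623-m0148-5p. The absence of this transcript from the degradome list gives no upper limit on its cleavage. The list holds only positions with reads, and the sources used here do not state how many degradome reads were obtained. For miR169, the score of 4.5 is also above the highest listed score, 4, so this pair may have been left out whatever its reads.

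**Figure D4:**
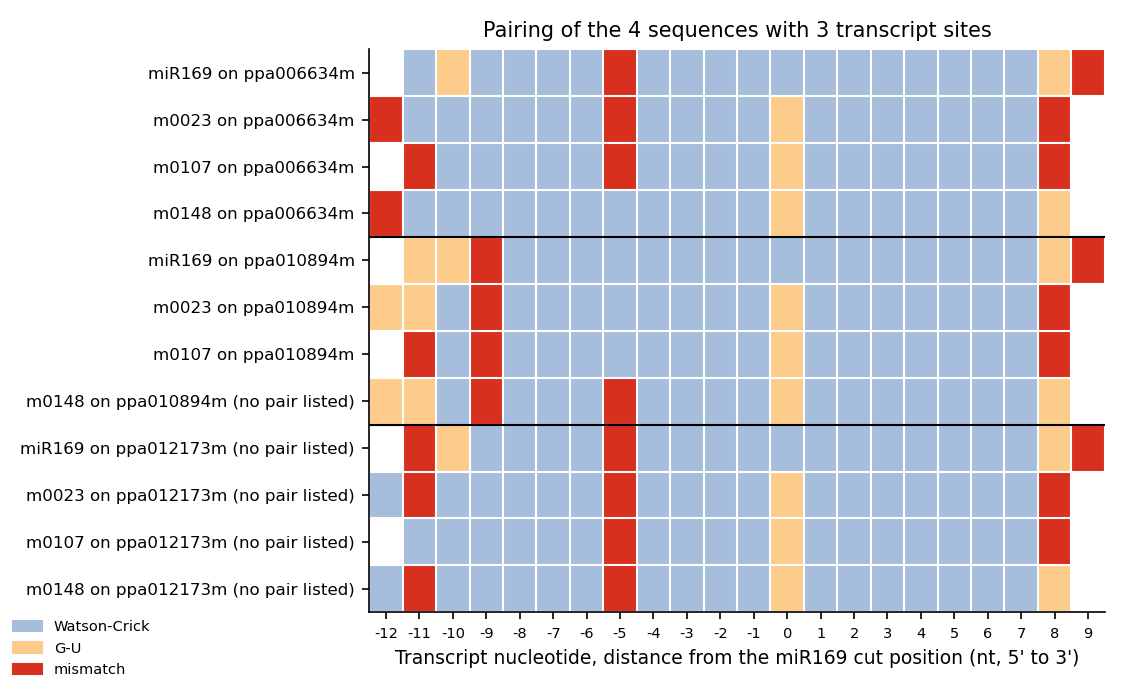
Pairing state of each site nucleotide (horizontal axis, distance in nucleotides from the miR169 cut position, 5′ to 3′) for the 4 sequences on ppa006634m, ppa010894m and ppa012173m (rows). Blue is Watson-Crick, yellow is G-U, red is a mismatch and white is outside the miRNA, and the column at 0 shows the G-U pair of the predicted sequences where miR169 has a Watson-Crick pair.

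The predicted arms were also paired with transcripts other than ppa006634m and ppa010894m, which miR169 was not. Over all listed arms of the 10 hairpins, 26 further pairs fell on 7 transcripts, and no other miRNA was listed on these 7. The largest count was on ppa008065m, for which no description was found in the sources used. It had 28 reads (18.6 to 40.5) at position 1069, in category 0, the highest position of its transcript, and was listed only with the 4 names of TBD-623-m0107-5p, with a score of 4 and a deposited p of 0.0114. Its site is acgcaaagcaUccuuggcua, from 1059 to 1078, with the cleavage position in capitals. It was the only one of the 7 transcripts with a deposited p under 0.05. It held more reads than the 9 of the 4 positions on ppa006634m and ppa010894m together, although degradome reads also depend on how abundant a transcript is, which was not measured.

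ppa006028m and ppa007941m, described by their likeness to the Arabidopsis NAC transcription factors NAC103 and NAC082, were each listed with the names of TBD-623-m0107-5p and TBD-623-m0148-5p. Each had 5 raw reads (1.62 to 11.7) and 2.5 normalized reads, at position 13 of ppa006028m and 291 of ppa007941m. Their sites have the same letters, uggggaaaucaUccuuggcuc, and whether the transcripts also agree further downstream, where the reads lie, was not examined. The same 5 reads may therefore be listed on both transcripts. The deposited p was 0.356 for TBD-623-m0107-5p and 0.586 for TBD-623-m0148-5p. ppa026026m had 1 read, listed with the names of TBD-623-m0107-5p. The 3p arms of m0131 and m0132 were listed on ppa000195m and ppa000196m, with 1 raw and 0.5 normalized reads on each, and those of m0148 and m0149 on ppa009021m with 1 read. The deposited p-values of these last 4 transcripts were between 0.624 and 0.760. The read on ppa000195m and that on ppa000196m may likewise be the same.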

How the data were processed

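Small RNA and degradome sequencing were each done on 1 library of mixed fruit stages. The deposited small RNA list gives raw counts. To make it, the authors removed low-quality reads, adaptors, reads under the minimum length and other RNA classes, mapped the rest with SOAP, named known miRNAs from miRBase and predicted hairpins with MIREAP. In the deposited degradome list, the authors' raw reads are counts at a cleavage position, and their normalized reads are a signal that equals or falls below the raw count. The alignment score and the p-value of each pair are the authors', from targetfinder and CleaveLand. The sources used here do not state the genome release, the thresholds for mapping the degradome reads or the degradome total. In 11 cells (6 in pairs of the predicted arms) the aligned stretch had become a date, whose month and day were taken as its first and last position.

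Sequences were aligned to miR169 at every ungapped offset. The list of names covers all rows of the rule, their 3p arms, further transcripts paired with these arms and the 5 nearest names outside. Members and lists were chosen with earlier results of these data known. Hairpin and site sequences came from the study's supplementary tables. Site windows were checked against a second supplementary listing and were equal in 7 of 7 cases. Hairpins were folded with RNAfold 2.7.2. Python 3.11.15, NumPy 2.4.6, SciPy 1.17.1, Biopython 1.88 and matplotlib 3.10.9 were used. Alignment and pairing were tested on simulated data. Alternatives covered repeated names, arms, denominators, gapped alignment, merged positions, thresholds and undoubled scores. The RefSeq gene table, which holds none of the transcript identifiers, was not used. The deposited small RNA counts sum to 2308209 reads.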

Additional observations from a re-analysis of the deposited data

How the results depend on the processing

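Counting every name raised the reads of the predicted 5p sequences to 1290 and lowered the ratio of miR169 to them to 3.26, and adding the 3p arms gave 630 reads and a ratio of 6.68. miR169 and the predicted 5p sequences held 0.198% of the listed reads, and 1.15% when miR156 was left out of the total. With a local alignment that allows gaps, TBD-623-m0023-5p and TBD-623-m0148-5p matched 16 nucleotides of miR169, because the match at an end beyond a mismatch is trimmed by such an alignment. Without the doubling at nucleotides 2 to 13, the pairing score on ppa006634m was 3 for miR169 and 2 for TBD-623-m0148-5p. Merging positions within 3 nucleotides left 2 cleavage sites. Counting every listed pair gave 51 reads on ppa006634m instead of 6. With a threshold of 0.01 on the deposited p, 10% of the pairs remained under it, instead of 50%. The number of distinct predicted sequences stayed at 3 when only the nucleotides aligned with miR169 were compared. No replicate could be left out, and no test between groups was made. No paired analysis was possible because each data type has 1 library. With 1 to 5 reads at each position on ppa006634m and ppa010894m, depth limits any statement on which position was cut more.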
